A study of Mus musculus with 4 samples.

Results

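The genes described here are 9 members of the sphingosine 1-phosphate (S1P) system that governs how lymphocytes leave tissues: the receptors S1pr1, S1pr2, S1pr3 and S1pr4, the kinases Sphk1 and Sphk2, the lyase Sgpl1, and the egress regulators Klf2 and Cd69. They were chosen by gene symbol, as every probe set that the platform's probe-to-gene table assigns to them alone, and are 9 of 18193 genes named in that way on the array. RNA came from cells of the small intestine of untreated 9-week-old female Balb/c mice, titled WT in the labels, and each sample was hybridised to 1 of 4 Affymetrix 3' expression arrays. The CD11b-positive group held 2 samples of IgA-positive cells that carried CD11b, the integrin alpha M chain, and the CD11b-negative group held 2 samples of IgA-positive cells that lacked it; both groups were thus sorted for IgA. In both groups, RNA for 1 array (1 µg) was labelled with the One-Cycle kit, and RNA for the other (0.1 µg) with the 3' IVT Express kit; a kit therefore gives 1 pair of arrays. The labels do not say whether samples of a group came from separate animals or sorts. The p-values therefore cover only how these samples vary, possibly for technical reasons, and precision is limited by having 4 arrays.

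S1P is a lipid made inside cells when a sphingosine kinase phosphorylates sphingosine, and it is broken down irreversibly by S1P lyase in the endoplasmic reticulum. Its level is high in blood and lymph and low in tissue, and lymphocytes that carry the receptor S1pr1 follow this gradient out of tissues. The transcription factor Klf2 drives S1pr1 transcription in T cells, and the activation marker Cd69 binds S1pr1 and removes it from the cell surface, which holds cells in place. In the mouse gut, S1P has been linked to the traffic of IgA plasma cells and their precursors.

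Because Klf2 is a transcription factor of an S1P receptor gene, the bases upstream of 3 members are shown: Klf2 itself, S1pr4, a receptor that was higher in the CD11b-positive fraction with the kit as a block, and S1pr2, a receptor that was not. They are the 250 bases before the gene's start, from RefSeq, build GRCm38.p6, printed 5′ to 3′ along the gene's strand; capitals mark the CACCC box bound by KLF proteins (searched as CACCC and, for the other strand, GGGTG) and the MEF2 consensus (both strands).
Klf2, chr8:72318812-72319061, plus strand: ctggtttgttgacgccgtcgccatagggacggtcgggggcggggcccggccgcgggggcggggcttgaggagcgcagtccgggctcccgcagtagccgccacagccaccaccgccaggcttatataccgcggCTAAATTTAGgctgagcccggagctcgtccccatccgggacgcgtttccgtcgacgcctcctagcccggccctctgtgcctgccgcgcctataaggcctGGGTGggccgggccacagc
S1pr4, chr10:81500138-81500387, minus strand: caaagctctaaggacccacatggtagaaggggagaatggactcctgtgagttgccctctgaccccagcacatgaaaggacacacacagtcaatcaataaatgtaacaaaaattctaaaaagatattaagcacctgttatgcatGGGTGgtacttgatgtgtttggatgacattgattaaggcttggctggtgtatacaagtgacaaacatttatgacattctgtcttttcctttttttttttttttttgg
S1pr2, chr9:20976794-20977043, minus strand: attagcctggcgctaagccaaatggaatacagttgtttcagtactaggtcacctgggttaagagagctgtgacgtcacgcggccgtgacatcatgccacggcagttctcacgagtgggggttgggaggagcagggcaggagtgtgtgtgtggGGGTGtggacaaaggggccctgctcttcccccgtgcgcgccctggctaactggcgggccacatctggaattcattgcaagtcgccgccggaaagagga
The CACCC box begins 19 bases before the start of Klf2, 107 bases before that of S1pr4 and 98 bases before that of S1pr2. Such a box stands in 52.0% of the 32851 windows of the same length in the table, so its presence in all 3 is a description only. The MEF2 match of Klf2 begins 118 bases before the start and does not overlap the box; S1pr3 also holds a match, 188 bases before its start, and 2.92% of windows hold one. Of the 9 genes, 7 have a start in the table, with 12 starts in all. S1pr1 and Cd69 have none there, so their upstream bases could not be shown. A CACCC box stands in 10 of the 12 windows, but 5 windows are of Sphk1 and some of those overlap. Counted by gene, 6 of the 7 hold a box at a listed start.

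Across all genes, limma with Benjamini-Hochberg adjustment called 0 of 12645 genes (0%) at an adjusted p under 0.05, while 397 genes (3.14%) were higher and 445 (3.52%) lower at an unadjusted p under 0.05. With the labelling kit as a block, which compares the fractions within kits, limma called 472 genes higher (3.73%) and 524 lower (4.14%), together 7.88%. In the fit with the block a gene has 1 residual degree of freedom of its own, and its error leans on a spread shared across genes. With the block and without the trend of that spread over signal, limma called 0 genes higher and 0 lower (710 and 867 at an unadjusted p under 0.05), so every call with the block rests on the trend. Itgam, the gene of CD11b, had signals of 189 and 109 in the CD11b-positive arrays, against 28.3 and 15.8 in the CD11b-negative arrays, which goes with the labels of the sort. The plasma cell genes Igha, Jchain and Mzb1 had signals between 8543 and 12633 on the 4 arrays. Of 14 tested plasma cell genes 2 were higher and 11 lower with both kits (median log2 difference -0.13), against 31.6% and 30.5% of all genes. With the block 1 was higher, Eaf2 (log2 difference 0.41), and 2 were lower, Sdc1 (-0.61) and Tnfrsf13b (-0.33). Beta-actin's ratio of signal at its 3' end to that at its 5' end, a measure of RNA length, was 1.43 and 1.61 in the CD11b-positive arrays, against 1.898 and 1.84 in the CD11b-negative arrays; its part in the results was not tested.

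Each of the 9 genes passed the filter on low signals with at least 1 probe set and was tested. S1pr1 and S1pr4 were higher in the CD11b-positive fraction and passed with the kit as a block, as 2 of 9 against 3.73% of all genes; the other 7 did not pass, and without the block none of the 9 did. Under 13 other settings of the fit with the block, chosen after seeing the data, S1pr1 passed in 12 and S1pr4 in 6. Within kits, 4 of 9 genes had the higher signal in CD11b-positive cells both times (S1pr1, S1pr4, Sphk1 and Klf2), against 31.6% of all genes. A further 3 were lower with both kits (S1pr2, S1pr3 and Cd69), against 30.5%, and Sphk2 and Sgpl1 went opposite ways in the kits, against 37.8%. Relative to the median difference of all genes over both kits, Sphk1 and Cd69 also went opposite ways on the deposited scale and after median centring. They did so with a common trimmed mean too. That median was not taken within each kit, so directions relative to a kit's own median are not given. For 3 of the 9 genes (S1pr1, S1pr3 and Sphk1) signals of the fractions had no overlap, against 35.5% of all genes. With 9 genes, the shares by direction and by overlap lie less than 2 genes away from those over all genes, and the median log2 difference of the 9 was 0.03, against 0.0027 over all genes tested.

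**Figure D1:**
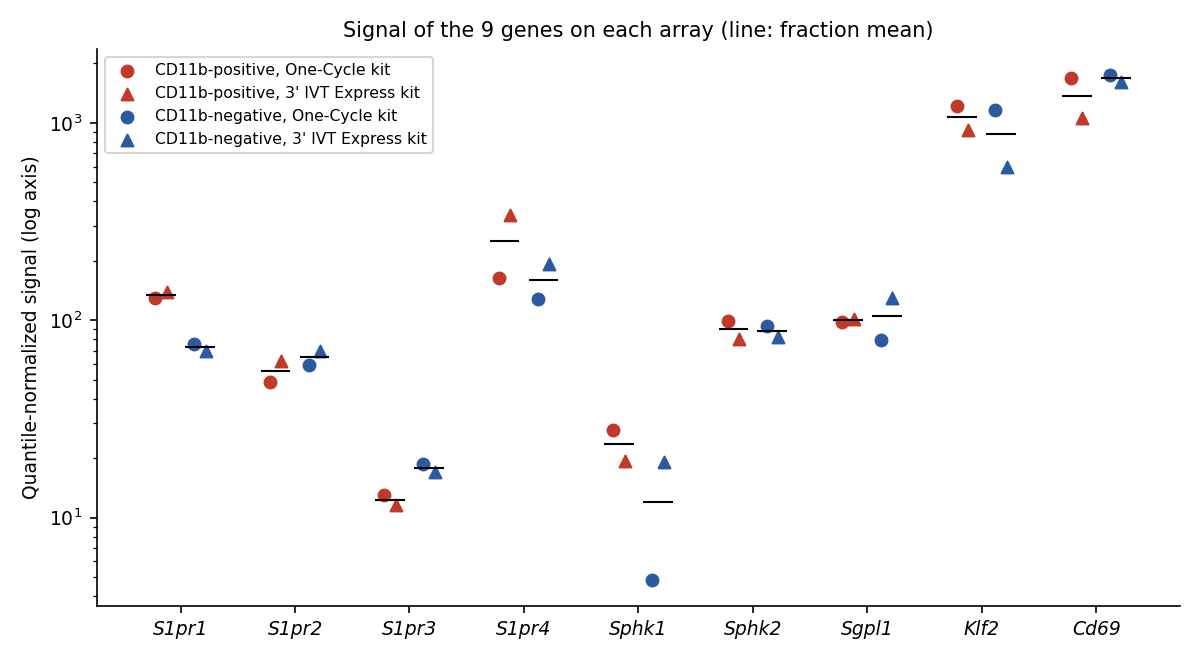
Quantile-normalized signal (log axis) of the 9 genes on each of the 4 arrays, CD11b-positive in red and CD11b-negative in blue, with circles for the One-Cycle and triangles for the 3' IVT Express kit and a line at each fraction's mean. Both S1pr1 signals of the CD11b-positive fraction (129 and 139) lie above both of the CD11b-negative fraction (75.9 and 69.97); signals of different genes come from different probes and are not comparable.

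S1pr1, the receptor that drives lymphocyte exit, had signals of 129 (One-Cycle kit) and 139 (3' IVT Express kit) in the CD11b-positive arrays, against 75.9 and 69.97 in the CD11b-negative arrays. The fractions did not overlap, as for 18.3% of all genes in this direction, and the arrays of each fraction lay close together. Mean signals were 134 ± 7.08 in the CD11b-positive arrays, against 72.9 ± 4.16 in the CD11b-negative arrays (SD, n = 2 each). On the log2(signal + 3) scale the difference was 0.85 (95% interval 0.29 to 1.41), or 1.81-fold, with 0.74 within the One-Cycle and 0.96 within the 3' IVT Express kit. The limma adjusted p was 0.6096 without the block and 0.00678 with it, when the interval was 0.44 to 1.27; with the block but no trend it was 0.362. Of all genes tested, 3.41% had a larger difference. With any 1 array left out, the difference was 0.80 to 0.91. In bulk RNA such as this, fewer cells of a type and less RNA per cell cannot be told apart.

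S1pr4, a receptor found mostly on lymphoid and other blood cells, had signals of 164 and 339 in the CD11b-positive arrays, against 128 and 193 in the CD11b-negative arrays, in the same order of kits. The CD11b-positive array was higher with each kit, but the fractions overlapped, and signals were higher with the 3' IVT Express kit in both. Mean signals were 252 ± 124 in the CD11b-positive arrays, against 161 ± 45.9 in the CD11b-negative arrays (SD, n = 2 each). The log2 difference was 0.58 (95% interval -0.35 to 1.501), with 0.35 and 0.80 within the kits, a 1.27-fold and a 1.75-fold difference. The limma adjusted p was 0.878 without the block and 0.0243 with it, when the interval was 0.25 to 0.91. This call was lost in 7 of the 13 other settings with the block, at limma adjusted p = 0.0514 to 0.419, among them each probe set tested without a filter (0.0673). Without CD11b-positive replicate 2, prepared with the 3' IVT Express kit, the value was 0.06, and without the other CD11b-positive array it was 1.09. It was 0.29 when CD11b-negative replicate 1 was left out and 0.87 when CD11b-negative replicate 2 was; each omission leaves the kits uneven between the fractions.

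**Figure D2:**
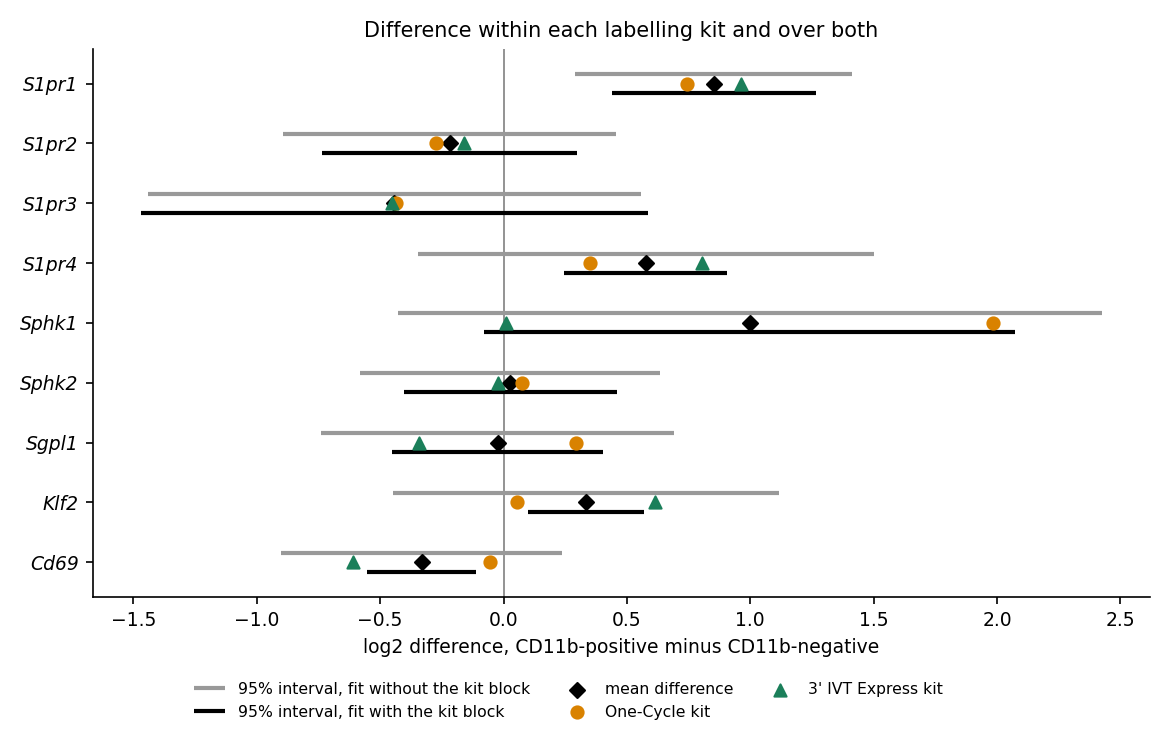
log2 difference, CD11b-positive minus CD11b-negative, of the 9 genes: circles and triangles are the difference within each kit (1 array against 1), diamonds their mean, and bars the 95% interval of single genes, not adjusted for the number of genes, without (grey) and with (black) the kit as a block. Both kits place S1pr1 between 0.74 and 0.96, while Sphk1 lies at 1.98 with the One-Cycle and 0.01 with the 3' IVT Express kit.

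The other receptors were lower in the CD11b-positive arrays of both kits and did not pass. S1pr2, which opposes migration in many cells, had signals of 48.7 and 62.5 in the CD11b-positive arrays, against 59.6 and 70.2 in the CD11b-negative arrays. The ranges overlapped, and the log2 difference was -0.22 (95% interval -0.89 to 0.46; limma adjusted p = 0.946, and 0.716 with the block). Its other probe set gave 39.6 and 48.1 in the CD11b-positive arrays, against 51.8 and 79.3 in the CD11b-negative arrays, a log2 difference of -0.53. Both probe sets thus went the same way, with the lowest signals in the CD11b-positive fraction. S1pr3, best known from vessels and heart, was dim: its brightest probe set had 13.1 and 11.6 in the CD11b-positive arrays, against 18.7 and 16.9 in the CD11b-negative arrays. These did not overlap, as for 17.3% of all genes in this direction, but the signals were near the filter of 9.51, and the log2 difference of -0.44 had a 95% interval from -1.44 to 0.56 (limma adjusted p = 0.922, and 0.7104 with the block). The remaining 2 probe sets of S1pr3 lay below the filter, with no signal above 2.21 in the CD11b-positive or 2.01 in the CD11b-negative arrays, and the mean of all 3 probe sets gave -0.08. S1pr5, a receptor of NK cell exit, also lay below the filter.

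Klf2, the transcription factor upstream of S1pr1, had signals of 1212 (One-Cycle) and 918 (3' IVT Express) in the CD11b-positive arrays, against 1166 and 599 in the CD11b-negative arrays. With the One-Cycle kit the fractions were close, at 1.04-fold, and with the 3' IVT Express kit the CD11b-positive array was 1.53-fold higher; over both kits the ranges overlapped. The log2 difference was 0.33 (95% interval -0.45 to 1.11), and the limma adjusted p was 0.925 without the block and 0.0774 with it. Without CD11b-negative replicate 2, the array with the lowest Klf2 signal, the difference was -0.14, and without CD11b-negative replicate 1 it was 0.81. Signals of Klf2 were lower with the 3' IVT Express than with the One-Cycle kit in both fractions (log2 difference -0.40 between the CD11b-positive arrays and -0.96 between the CD11b-negative arrays).

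Cd69, which takes S1pr1 off the surface, had signals of 1693 (One-Cycle) and 1059 (3' IVT Express) in the CD11b-positive arrays, against 1758 and 1617 in the CD11b-negative arrays. The CD11b-positive array with the 3' IVT Express kit stood below the other 3, which lay close together. The log2 difference was -0.33 (95% interval -0.902 to 0.24), with -0.05 and -0.61 within the kits, and the limma adjusted p was 0.889 without the block and 0.0579 with it. Without CD11b-positive replicate 2 the difference was 0.0066, and without CD11b-positive replicate 1 it was -0.67. Within the One-Cycle kit, the difference of Cd69 was 0.0082 with a common trimmed mean, against -0.05 here. After median centring it was 0.11, relative to the median difference of all genes over both kits rather than within this kit. The direction of Cd69 within the One-Cycle kit thus depended on the scaling.

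Cd69 and Klf2 are also responsive to cell activation, and the levels of early response genes and of markers of other cell types are given beside them. The list counts stand against 31.6% of all genes higher and 30.5% lower with both kits. With the block, the shares of all genes were 3.73% higher and 4.14% lower. Of 25 immediate early genes tested, 22 were lower and 0 higher with both kits (18 lower with the block). Their summed signal was 26896 and 22459.9 in the CD11b-positive arrays, against 41617 and 37868 in the CD11b-negative arrays. Among them Fos, a subunit of AP-1, had 4752 and 3554 in the CD11b-positive arrays, against 7099 and 5738 in the CD11b-negative arrays. Of 19 tested T cell, NK cell and innate lymphoid markers, of cells in which Cd69 and S1pr1 are also found, 11 were lower and 1 higher with both kits (5 lower with the block). Their summed signal was 5268 and 4106 in the CD11b-positive arrays, against 7970 and 4967 in the CD11b-negative arrays. Cd28 made up a large part of these sums, with 2056 and 2305 in the CD11b-positive arrays, against 1920 and 2397 in the CD11b-negative arrays. The 5 genes lower with the block, Ccl5, Gzmb, Gzma, Nkg7 and Cd8a, were each lower with both kits. Cd3e, of the T cell receptor complex, went opposite ways in the kits. It had 49.8 and 43.4 in the CD11b-positive arrays, against 187 and 39.4 in the CD11b-negative arrays, so the CD11b-negative array of the One-Cycle kit held the most. Cd247, Cd8b1 and Gata3 lay below the filter. Among 14 mature B cell genes, 4 were higher and 5 lower with both kits, with summed signals of 8500.3 and 5687 in the CD11b-positive arrays, against 9166 and 4818 in the CD11b-negative arrays. With the block 2 were higher, H2-Aa and Cd74, and 1 was lower, Cd79a. B cell genes thus split, with no common direction. Macrophage, monocyte and dendritic cell genes split as 6 higher and 5 lower of 15 tested (2 higher and 2 lower with the block), with sums of 3336 and 3289 in the CD11b-positive arrays, against 4681 and 4853 in the CD11b-negative arrays. Those lower with the block were Cst3, a protease inhibitor, and Lyz1, a lysozyme also listed for epithelium, which together made up most of the sum. Without these 2 genes the summed signal was higher, not lower, in the CD11b-positive array of each kit. Those higher with the block were named after their values were seen: Il1b, a cytokine of monocytes (log2 difference 1.52, limma adjusted p = 0.000113 with the block), and Itgax, the CD11c integrin chain (0.85, limma adjusted p = 0.0132 with the block). Of 15 endothelial and stromal genes, 4 were higher and 4 lower, with sums of 334 and 373 in the CD11b-positive arrays, against 311 and 399 in the CD11b-negative arrays; Tie1, Tek, Prox1 and Vwf of endothelium lay below the filter. Of 8 granulocyte and mast cell genes, 1 was higher and 5 lower, with sums of 303 and 218 in the CD11b-positive arrays, against 419 and 316 in the CD11b-negative arrays. With the block 0 were higher and 1 was lower, Prg2 (log2 difference -1.43, limma adjusted p = 0.000643 with the block and 0.467 without). S100a8, S100a9, Cxcr2, Epx, Siglecf, Ccr3, Fcer1a and Ms4a2 lay below the filter. Of 22 epithelial genes, 20 were lower and 0 higher (18 lower with the block), with sums of 4705 and 3386 in the CD11b-positive arrays, against 8545 and 8501 in the CD11b-negative arrays. The part of these cells in the signals of the 9 genes was not tested.

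**Figure D3:**
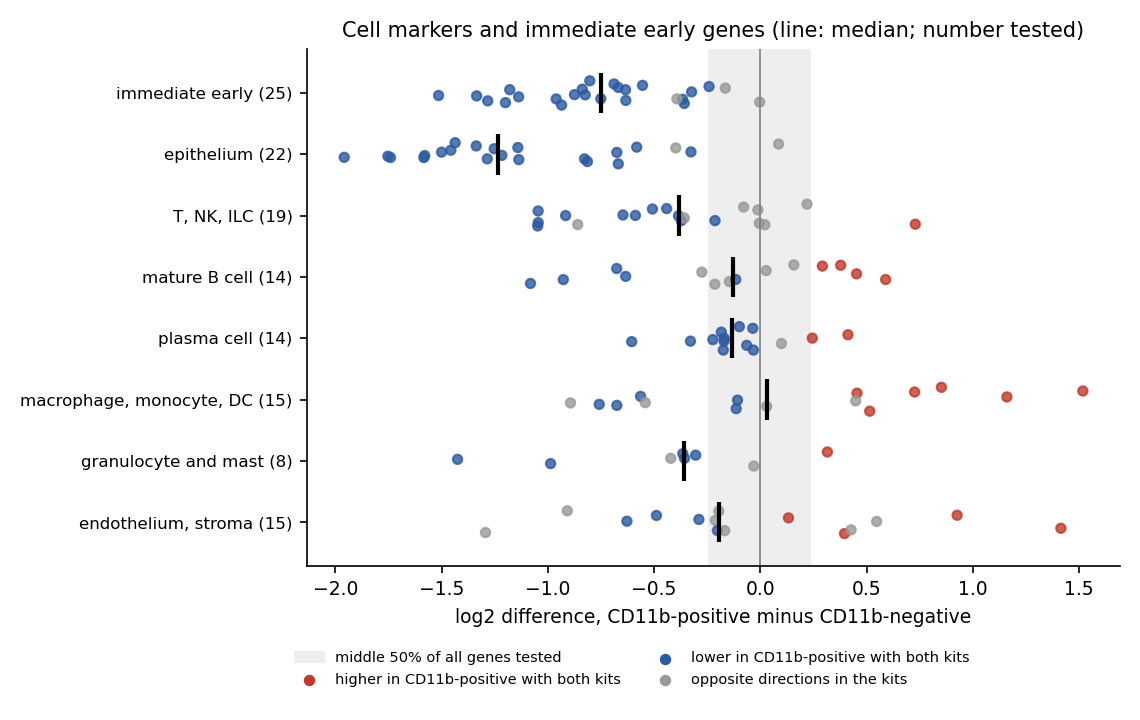
log2 difference, CD11b-positive minus CD11b-negative, of each tested gene in 8 lists of cell markers and early response genes; colour shows the direction with both kits, black lines are list medians, and the grey band holds the middle 50% of all genes tested. Immediate early genes (median -0.75) and epithelial genes (median -1.23) lie mostly left of 0, while B cell, myeloid and endothelial genes fall on both sides.

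The kinases and the lyase, which set how much S1P a cell makes and keeps, did not pass with or without the block. Sphk1, the cytosolic kinase that growth factors activate, had signals of 27.9 and 19.4 in the CD11b-positive arrays, against 4.81 and 19.2 in the CD11b-negative arrays. The fractions just failed to overlap, and the CD11b-negative array of the One-Cycle kit stood alone below the other 3. The log2 difference was 0.998 (95% interval -0.43 to 2.42; limma adjusted p = 0.862, and 0.305 with the block), with 1.98 within the One-Cycle and 0.01 within the 3' IVT Express kit, and 0.24 without CD11b-negative replicate 1. Its other probe set lay below the filter, at 1.48 and 1.34 in the CD11b-positive arrays, against 1.45 and 7.68 in the CD11b-negative arrays, and the mean of both probe sets gave 0.18.

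Sphk2, the kinase found in the nucleus and at internal membranes, had 99.1 and 80.8 in the CD11b-positive arrays, against 93.9 and 82.01 in the CD11b-negative arrays. These signals overlapped fully, and the log2 difference of 0.03 had a 95% interval from -0.58 to 0.64 (limma adjusted p = 0.9952, and 0.971 with the block); it was -0.02 after scaling to a common trimmed mean. The other Sphk2 probe set gave 30.1 and 15.5 in the CD11b-positive arrays, against 14.8 and 27.8 in the CD11b-negative arrays, with opposite directions in the kits. Sgpl1, the S1P lyase, had 98.2 and 102 in the CD11b-positive arrays, against 79.6 and 129.9 in the CD11b-negative arrays. The CD11b-negative arrays were thus the highest and the lowest of the 4, and the log2 difference was -0.02 (95% interval -0.74 to 0.69; limma adjusted p = 0.9952, and 0.974 with the block). Leaving out CD11b-negative replicate 2 gave 0.32, and leaving out CD11b-negative replicate 1 gave -0.37. Its other probe set gave 27.7 and 11.8 in the CD11b-positive arrays, against 21.3 and 27.3 in the CD11b-negative arrays, and again the kits disagreed in direction.

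**Figure D4:**
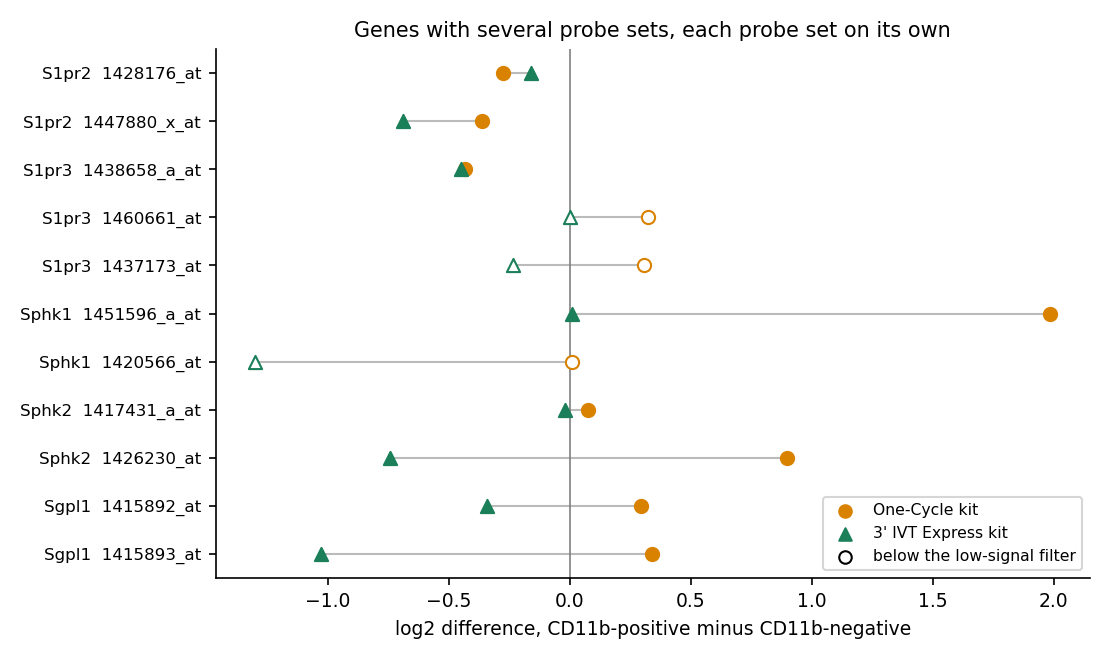
log2 difference, CD11b-positive minus CD11b-negative, of every probe set of the 5 genes that have more than 1, within the One-Cycle kit (circles) and the 3' IVT Express kit (triangles); open symbols are probe sets below the low-signal filter. Both S1pr2 probe sets lie left of 0 with each kit, and both Sgpl1 probe sets lie right of 0 with the One-Cycle and left of 0 with the 3' IVT Express kit.

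Around the 9 genes, S1P exporters and phosphatases went both ways. For this list and those that follow, the shares of all genes were 31.6% higher and 30.5% lower with both kits. With the block they were 3.73% higher and 4.14% lower. Of 12 tested genes for S1P transport, dephosphorylation and aldehyde clearance, with the carrier Apom, Plpp3 and S1pr5 below the filter, 0 were higher and 2 lower with the block, 4 were higher and 5 lower with both kits, and the median log2 difference was -0.06. Sgpp2, an S1P phosphatase of the endoplasmic reticulum, had 193 and 209 in the CD11b-positive arrays, against 307 and 384 in the CD11b-negative arrays (log2 difference -0.77, limma adjusted p = 0.000567 with the block and 0.6096 without). Plpp2, a lipid phosphate phosphatase, had 62.3 and 45.5 in the CD11b-positive arrays, against 132 and 127 in the CD11b-negative arrays (-1.24, limma adjusted p = 0.000328 with the block and 0.511 without). Plpp6, another lipid phosphatase, was at 0.82 and Mfsd2b, the S1P exporter of red cells and platelets, at -1.81, and neither passed with the block (limma adjusted p = 0.0925 and 0.0862). Mfsd2b was dim, with 9.31 and 1.05 in the CD11b-positive arrays, against 16.2 and 28.9 in the CD11b-negative arrays. Spns2, the exporter of endothelium, had 5.95 and 13.9 in the CD11b-positive arrays, against 20.5 and 17.1 in the CD11b-negative arrays, and did not pass.

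Of 20 tested genes that supply ceramide and sphingosine, 11 were lower and 4 higher with both kits, with a median of -0.19, and with the block 2 were lower and 0 higher. Cers2, a ceramide synthase for very long acyl chains, had 479.6 and 486 in the CD11b-positive arrays, against 709.7 and 651 in the CD11b-negative arrays (log2 difference -0.49, limma adjusted p = 0.00592 with the block and 0.683 without). Smpd2, a neutral sphingomyelinase, had 80.4 and 95.8 in the CD11b-positive arrays, against 152 and 148 in the CD11b-negative arrays (-0.75, limma adjusted p = 0.0117 with the block and 0.618 without). Sgms2, a sphingomyelin synthase, had 3.98 and 5.88 in the CD11b-positive arrays, under the filter's signal, against 24.9 and 17.9 in the CD11b-negative arrays, and did not pass with the block. Acer3, an alkaline ceramidase, stood at 0.74 and did not pass either.

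Among 22 tested genes that couple or desensitise S1P receptors, 6 were higher and 7 lower with both kits (median 0.0027), and with the block 0 were higher and 3 lower. The 3 were Rgs1 and Rgs2, which shorten signalling by G proteins, and Gna13, the G protein alpha chain that S1pr2 uses. Rgs2 had 230.2 and 127 in the CD11b-positive arrays, against 395 and 259 in the CD11b-negative arrays, and its log2 difference was -0.89 (limma adjusted p = 0.000146 with the block and 0.728 without). Gna13 stood at -0.34 and Rgs1, an inhibitor of lymphocyte chemotaxis that was named because it is 1 of the 3, at -0.42 (limma adjusted p = 0.0434 and 0.0327 with the block). Gnaq, another G protein alpha chain, stood at -0.67 and Rgs3 at -0.58, and neither passed. Gnai2, the main inhibitory G protein alpha chain through which S1pr1 signals, had 963 and 1217 in the CD11b-positive arrays, against 1054 and 1135 in the CD11b-negative arrays. Its log2 difference was -0.01, and it was named after its value was seen, as the partner of S1pr1.

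Of 15 tested genes that control Klf2 or lie under it, Klf2 included, 4 were higher and 6 lower with both kits (median -0.05). With the block 1 was higher, Itgb7, the integrin chain for gut homing whose expression Klf2 promotes in mouse B cells (log2 difference 0.40, limma adjusted p = 0.0194 with the block and 0.788 without), with 819 and 1066 in the CD11b-positive arrays against 690.1 and 722 in the CD11b-negative arrays. Klf6, an early response relative of Klf2, was lower with the block, at 515 and 743 in the CD11b-positive arrays, against 777 and 1190.3 in the CD11b-negative arrays (-0.63, limma adjusted p = 0.000176 with the block and 0.7600 without). Klf4 went the same way as Klf6, at -0.54, without passing, and Smurf1, a ubiquitin ligase that targets Klf2, stood at 0.76, also without passing. Within both kits the CD11b-positive array was thus above the CD11b-negative one for Klf2 and below it for Klf4 and Klf6. For Klf2 the difference within the One-Cycle kit was only 0.06, and it was -0.14 over both kits without CD11b-negative replicate 2. Signals of the fractions overlapped for Klf2 and Klf4, and neither gene passed. Of the kinases Map2k5 and Mapk7 and the factors Mef2a, Mef2c and Mef2d, which act on the MEF2 site of Klf2, none passed: the log2 differences were 0.04 for Map2k5, -0.805 for the dim Mapk7, -0.05 for Mef2a, 0.08 for Mef2c and -0.31 for Mef2d.

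Of 13 tested receptors and integrins that hold or guide lymphocytes, 2 were higher and 7 lower with both kits (median -0.25), and with the block 1 was higher, again Itgb7, and 3 were lower. Cxcr4, the receptor that retains plasma cells near its ligand Cxcl12, had 175 and 99.4 in the CD11b-positive arrays, against 247 and 177 in the CD11b-negative arrays (log2 difference -0.65, limma adjusted p = 0.0126 with the block and 0.817 without). Itgae, the integrin chain that binds epithelial E-cadherin and is typical of T cells within the epithelium, had 93.98 and 64.4 in the CD11b-positive arrays, against 235 and 95.99 in the CD11b-negative arrays (-0.93, limma adjusted p = 0.00395 with the block and 0.793 without). Itgal stood at -0.55 (limma adjusted p = 0.00352 with the block). Of the 4 genes of this list with the smallest p, Itgb7 was thus higher, and Cxcr4, Itgae and Itgal lower, in the CD11b-positive array of each kit. No other tested gene of the list passed with the block.

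**Figure D5:**
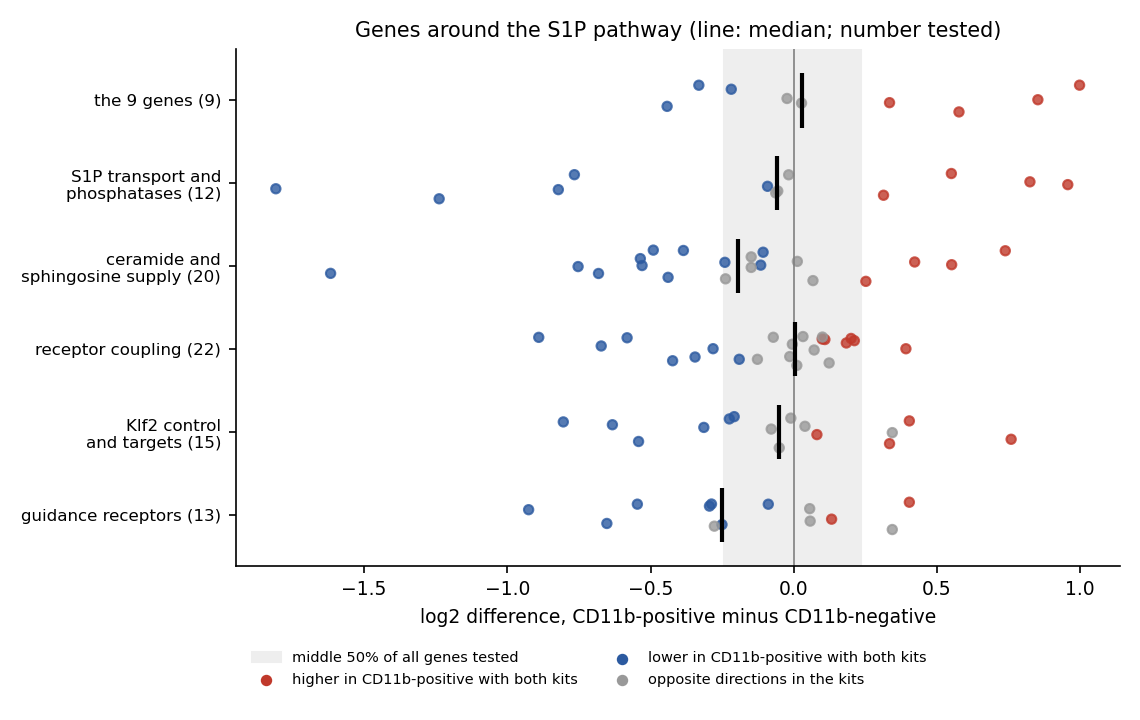
log2 difference, CD11b-positive minus CD11b-negative, of each tested gene among the 9 genes and 5 lists around the S1P pathway; colour shows the direction with both kits, black lines are list medians, and the grey band holds the middle 50% of all genes tested. List medians run from -0.25 (guidance receptors) to 0.03 (the 9 genes), and each list holds genes on both sides of 0.

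The genes whose signals ran most like those of a member were found by the Euclidean distance between log2 values centred over the 4 arrays. For S1pr1 these were Mms22l, Ccdc166 and Ezh2, at distances of 0.05, 0.06 and 0.07 log2 units; Ezh2 had 505 and 581 in the CD11b-positive arrays, against 315 and 294 in the CD11b-negative arrays. For S1pr4 they were Dnm3, Dao and Tmem158 (0.07 to 0.09), for Klf2 Kifc2, Lin37 and Fndc11 (0.03 to 0.06), and for Cd69 Il1rn, Ccnb1ip1 and Gsap (0.03 to 0.07). For Sphk1, with its single low array, the nearest were D130017N08Rik, Capn12 and Tubb4a (0.15 to 0.21). With 4 arrays and 12645 genes such distances only describe.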

How the data were processed

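The deposited values are intensity values, 1 linear signal per probe set, for which the submitters' processing notes name Affymetrix Expression Console and the MAS5 algorithm; the versions and the target of the scaling were not given in the sources used here. From the 45101 probe sets deposited, 64 controls were set aside. The authors' signals differed in overall level (2% trimmed means of 73.8 and 90.3 in the CD11b-positive arrays, against 48.6 and 70.05 in the CD11b-negative arrays), so they were quantile-normalized, and signals given are so normalized unless called deposited. After adding a pseudocount of 3 and taking log2, probe sets were kept if their mean lay above the 40th percentile (a signal of about 9.51), and each gene was represented by its brightest probe set that names 1 gene. All 12645 such genes entered limma 3.58.1 (R 4.3.3; lmFit, then eBayes with a trend; 2-sided), with Benjamini-Hochberg adjustment over all genes. Fold changes are on the log2(signal + 3) scale and understate differences of weak genes. With 2 arrays against 2, no exact permutation p can be under 0.333, so none is given.

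Per the labels' protocols, replicate 1 had the One-Cycle and replicate 2 the 3' IVT Express kit in both fractions. The replicate block is this kit: 2 arrays that share a kit deviated together from their fraction means (r = 0.387 across genes). The members and all lists were chosen with earlier results of these data known. Named genes were the 9 members, Itgam, up to 4 genes per pathway list by smallest p without the block, up to 3 per marker list by highest signal, and the 3 nearest profiles of each member, of which marker genes and profiles are printed in part. Spns2, Gnai2, Map2k5, Mapk7, Mef2a, Mef2c, Mef2d, Rgs1, Cd3e, Gzmb, Nkg7, Cd8a, Il1b, Itgax, Eaf2, Sdc1, Tnfrsf13b and genes below the filter were named in addition. Listed genes without a probe set of their own are not analysed here. Alternatives covered the block, the scaling, the pseudocount, the filter, the probe sets, the trend and leaving out each array; the fit with the block under these settings was added after seeing the data. The model was tested on simulated data, whose noise was drawn from the trend in spread of the fit with the block. The simulation could therefore not test that trend.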

Additional observations from a re-analysis of the deposited data

How the results depend on the processing

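The replicate block, here the kit, gave 472 calls of higher and 524 of lower genes by limma, against 0 and 0 without it, and S1pr1 (log2 difference 0.85, adjusted p = 0.00678) and S1pr4 (0.58, adjusted p = 0.0243) passed; the block changed no other member's call. With the block and 13 further settings, added after seeing the data, S1pr1 lost its call without the trend (0.85, adjusted p = 0.362; 0 genes called). S1pr4 lost it on the deposited scale (0.65, adjusted p = 0.05496), with cyclic loess (0.55, 0.0514), a pseudocount of 1 (0.58, 0.0549), the mean of all probe sets (0.0827), no shared probe sets (0.0709), each probe set without a filter (0.0673) and no trend (0.419). Klf2 passed with median centring (0.48, adjusted p = 0.0253). The calls over all genes with the block ran from 0 to 546 higher (546 with median centring) and 0 to 524 lower. With each probe set tested, 561 probe sets were called higher and 570 lower. Over all alternatives the adjusted p of S1pr1 and S1pr4 ran up to 0.9998. Leaving out 1 array gave 0 to 2 genes higher and 0 to 23 lower (1 and 23 without CD11b-positive replicate 1, 2 and 2 without CD11b-positive replicate 2); this leaves the kits uneven between the fractions. The members' ranges were then -0.12 to 0.17 for Sphk2, -0.37 to 0.32 for Sgpl1, -0.14 to 0.81 for Klf2 and -0.67 to 0.0066 for Cd69, which changed direction, while S1pr1 stayed at 0.80 to 0.91, S1pr4 at 0.06 to 1.09, S1pr2 at -0.39 to -0.05, S1pr3 at -0.51 to -0.37 and Sphk1 at 0.24 to 1.75. The deposited scaling and median centring moved the median of all genes by 0.42 and 0.23 log2. These medians are over both kits, and the same value was subtracted within each kit. Relative to that shift the mean differences of the 9 genes kept their direction, and Sphk2 alone turned under the remaining scalings (-0.020 with a common trimmed mean). Over these scalings S1pr1 ran from 0.81 to 0.86. Without shared probe sets, and with a filter at the 70th percentile, S1pr3 and Sphk1 had no value. By direction within kits, 3 members were higher and 2 lower with both, against 4 and 3, with the deposited scale, median centring and the common trimmed mean (Sphk1 and Cd69 then differed between kits), with the mean of all probe sets (Sphk1 and S1pr3), and in the settings that leave S1pr3 and Sphk1 without a value. Apart from the block and the omission of either CD11b-positive array, no alternative called any gene. Dim signals limit S1pr3 and Sphk1.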
